A study of Mus musculus with 9 samples.

Results

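The VEGF, angiopoietin and neuropilin signalling genes of the mouse yolk sac are described here through 10 members: the growth factors Vegfa and Vegfc, the VEGF receptors Kdr, Flt1 and Flt4, the receptors Tek and Tie1, the angiopoietin Angpt2 and the co-receptors Nrp1 and Nrp2. Members were taken as the probe sets that name exactly 1 of these genes, with the probe set of highest mean kept for a gene that has several. Each of the 10 members had exactly 1 such probe set, and together they are 10 of the 19933 genes that had a probe set of their own. RNA had been isolated at embryonic day 9.5 from mouse yolk sacs on a mixed SV 129/C57BL/6 background, either wild type (WT, Rnh1 +/+), heterozygous (HET) or knockout (KO) for Rnh1, which encodes the ribonuclease inhibitor. There were 3 samples per genotype with 1 Affymetrix whole-transcript array each, and none had been treated. Per the labels' protocols, yolk sacs were dissected free of maternal tissue. Embryo sex, pooling of yolk sacs, litters and the design of the Rnh1 allele are not stated in the labels, so p-values measure only the spread between these samples, which may be technical. Levels are log2 signals, on which a difference of 1 is a doubling, and a probe set's level cannot be read against that of another probe set.

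Vascular endothelial growth factors are secreted ligands that bind receptor tyrosine kinases on endothelial cells and drive vessels to form, sprout and grow. KDR (VEGFR2) carries most of the signal of VEGFA, FLT1 (VEGFR1) binds VEGFA tightly but signals weakly and acts largely as a decoy, and FLT4 (VEGFR3) is the receptor for VEGFC. TEK (TIE2) is the receptor for the angiopoietins and works with its relative TIE1 in the remodelling and stability of vessels, while the neuropilins are co-receptors for both VEGFs and class 3 semaphorins. In the yolk sac, blood islands and a first vascular plexus arise in the mesoderm and are remodelled into larger vessels around this stage, and mouse embryos without Kdr, Flt1 or Tek die with vascular defects.

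Rnh1 followed the labels. Its mean level was 10.38 ± 0.05 (SD, n = 3) in WT, 9.75 ± 0.01 (n = 3) in HET and 6.64 ± 0.32 (n = 3) in KO yolk sacs, and the 3 genotypes did not overlap. KO differed from WT by -3.73 (limma, adjusted p = 4.61e-06). On KO 1 it was at 6.28, under that array's 40th percentile, so that fold is a lower bound. Arrays of the same genotype correlated at 0.992 to 0.998 over all probe sets and arrays of different genotypes at 0.987 to 0.998. Of 13207 genes bright enough to test, 23.5% differed between KO and WT, 21.8% between KO and HET and 0 between HET and WT at an adjusted p under 0.05. The female transcript Xist was at 10.56 to 11.67 on WT 2, WT 3, HET 2 and all KO arrays and at 5.15 to 5.76 on WT 1, HET 1 and HET 3. The Y-linked Eif2s3y was at 4.34 on WT 3, 4.41 on KO 3 and between 7.27 and 8.81 on the others, so these sex-linked transcripts were not balanced between genotypes. WT 2, HET 2, KO 1 and KO 2 carried both. All 11 endothelial markers were above the 40th percentile on every array. The 6 trophoblast markers averaged 4.86 to 5.29 in WT, 4.66 to 5.53 in HET and 5.47 to 5.89 in KO, with at most 2 of 6 above the 40th percentile on any array. The 6 markers of decidua and uterine natural killer cells averaged 6.78 to 7.13 in WT, 5.39 to 6.53 in HET and 6.70 to 7.38 in KO. Their part in the results on the members was not tested.

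The sequences shown are the 250 bases before a listed transcription start of the genes on which the results turn. With them, the promoters of members that were lower (Flt1, Tek), higher (Vegfa) or not past the test (Kdr, Tie1) in KO against another genotype can be read side by side. They are RefSeq sequences of build GRCm38.p6, written 5′ to 3′ on the gene's strand, with capitals marking the ETS core GGAA or its reverse complement TTCC. A promoter was matched for 9 of the 10 members, all except Angpt2. RefSeq draws the gene beyond the start used for Flt1 (to 147726438), Kdr (to 75979072) and Tek (from 94739086). The stretches of Flt1 and Kdr thus lie inside the annotated gene, and that of Tek mostly does. Positions are Flt1 chr5:147726012-147726261 (minus strand), Tek chr4:94739039-94739288 (plus strand), Vegfa chr17:46032378-46032627 (minus strand, the first of its 2 listed starts), Kdr chr5:75978456-75978705 (minus strand) and Tie1 chr4:118489850-118490099 (minus strand).
Flt1: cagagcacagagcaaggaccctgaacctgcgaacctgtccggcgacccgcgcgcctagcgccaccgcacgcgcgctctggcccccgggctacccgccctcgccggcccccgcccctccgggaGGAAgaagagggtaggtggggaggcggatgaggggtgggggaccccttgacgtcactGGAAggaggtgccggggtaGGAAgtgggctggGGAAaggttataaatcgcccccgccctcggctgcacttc
Tek: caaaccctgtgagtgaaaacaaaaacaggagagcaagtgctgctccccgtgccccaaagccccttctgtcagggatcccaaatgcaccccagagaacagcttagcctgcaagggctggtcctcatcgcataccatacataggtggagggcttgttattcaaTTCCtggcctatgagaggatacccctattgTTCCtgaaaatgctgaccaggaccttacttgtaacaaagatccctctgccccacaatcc
Vegfa: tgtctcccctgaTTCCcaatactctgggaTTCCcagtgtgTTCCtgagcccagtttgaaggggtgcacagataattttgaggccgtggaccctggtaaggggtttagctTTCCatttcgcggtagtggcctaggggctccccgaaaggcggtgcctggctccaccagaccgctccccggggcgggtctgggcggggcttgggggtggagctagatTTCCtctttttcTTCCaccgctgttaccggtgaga
Kdr: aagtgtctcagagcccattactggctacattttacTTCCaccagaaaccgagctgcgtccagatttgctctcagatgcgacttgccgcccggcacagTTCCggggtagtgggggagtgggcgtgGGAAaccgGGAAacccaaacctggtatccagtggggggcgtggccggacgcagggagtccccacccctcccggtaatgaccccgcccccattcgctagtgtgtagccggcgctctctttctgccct
Tie1: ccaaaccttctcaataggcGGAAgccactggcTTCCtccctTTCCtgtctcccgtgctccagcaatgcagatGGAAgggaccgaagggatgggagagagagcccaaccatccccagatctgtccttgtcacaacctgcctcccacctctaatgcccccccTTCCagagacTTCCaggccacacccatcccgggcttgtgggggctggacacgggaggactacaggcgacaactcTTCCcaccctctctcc

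Short motifs were searched on both strands of these stretches: GGAA (the ETS core), AGATAA (a site of GATA factors), CACGTG (an E-box), ACGTG (the hypoxia element core, contained in that E-box), TGANTCA (the AP-1 site), TGACGTCA (the cyclic AMP element), GTAAACA (a forkhead site), TATAAA (a core promoter element) and GGGCGG (the GC box). GGAA was present in 93.4% of the 32851 RefSeq promoters of this length, with a median of 3 matches. The promoter of Flt1 held 4 matches to GGAA, that of Tek 2, Kdr 4, Vegfa 6 and Tie1 7. The Flt1 promoter also held 1 TGACGTCA beginning 81 bases before the start, a motif in 1.55% of all promoters, 1 TATAAA beginning 31 bases before it, a motif in 12.4%, and 3 GC boxes, a motif in 32.7%. The printed Vegfa promoter held 1 AGATAA, a motif in 9.99% of promoters, and 2 GC boxes, whereas that of its second listed start held 2 GGAA, 1 GC box, no AGATAA and 1 ACGTG, a motif in 16.6% of promoters. Kdr held 2 GC boxes, and Tek and Tie1 held none of the searched motifs beyond GGAA. A match describes these letters and is not a measured binding site.

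The question put to the members was whether their level in the yolk sac depends on Rnh1. In KO against WT, 2 of the 10 fell, Flt1 and Tek, both receptors, and 0 rose, while 23.5% of all genes tested passed (8.27% higher and 15.2% lower). Against HET, the same receptors were lower in KO and Vegfa was higher, so 3 of 10 passed beside 21.8% of all genes (8.17% higher and 13.6% lower). The share of members that passed was thus near that of genes at large. The count over all genes was 1669 in KO against WT without WT 1 and 1763 without WT 2, and 1508 in KO against HET without HET 1 and 1557 without HET 2. The median KO minus WT difference of the members was -0.06 beside -0.0046 for all genes, and the median size of the difference, whatever its sign, was 0.161 beside 0.157. KO minus HET gave a median size of 0.187 for the members and 0.135 for all genes. All 10 members were above the 40th percentile of every array, Vegfc lowest at the 49.5th, so none was tested only because 1 genotype raised it. In whole tissue, fewer cells of a type and less RNA per cell cannot be told apart.

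**Figure D1:**
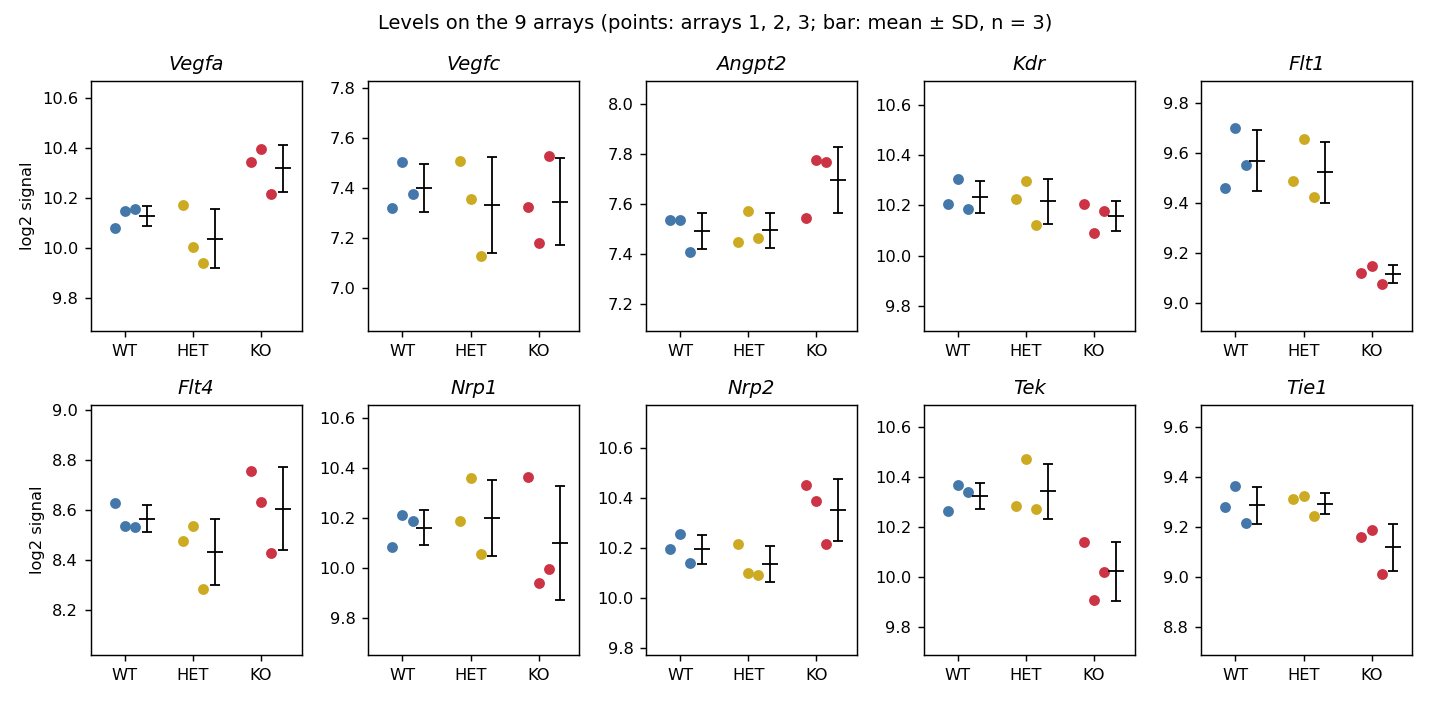
Log2 signal (vertical axis) of each of the 10 members on the 9 arrays, with 1 panel per gene, points for single arrays grouped as WT, HET and KO, and a bar for the genotype mean ± SD (n = 3). The KO points of Flt1, Tek and Tie1 lie below all WT and HET points, and those of Vegfa lie above them.

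Among the VEGF ligands, Vegfa, the main angiogenic factor of the early embryo, was at 10.08, 10.15 and 10.15 on the WT arrays, 10.17, 10.001 and 9.94 on the HET arrays and 10.34, 10.39 and 10.21 on the KO arrays. All 3 KO arrays were above all 6 others. The KO minus HET difference was 0.28 ± 0.076 (SE), a 1.21-fold higher signal, and it passed (limma, adjusted p = 0.0294). KO minus WT was 0.19 with a 95% interval of 0.02 to 0.36 and did not pass (adjusted p = 0.1004). The KO minus HET call was lost without WT 1, HET 2, HET 3, KO 1 or KO 2 (adjusted p 0.0508 to 0.0957) and with arrays centred on their medians (0.0674), while KO minus WT passed after quantile normalization (0.26, adjusted p = 0.0217) and cyclic loess (0.25, adjusted p = 0.0285). The KO minus HET difference was 0.29 with Xist as a covariate (adjusted p = 0.147), 0.30 with Eif2s3y (0.0620) and 0.28 in a fit of KO and HET alone (0.0713), and it stayed between 0.23 and 0.35 under all 24 alternatives.

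Vegfc, the ligand of FLT4 and a driver of venous and lymphatic growth, did not pass, and its genotypes overlapped throughout. It was at 7.32, 7.51 and 7.38 on the WT arrays, 7.51, 7.36 and 7.13 on the HET arrays and 7.33, 7.18 and 7.53 on the KO arrays. KO minus WT was -0.05 (adjusted p = 0.752) and KO minus HET 0.01 (adjusted p = 0.951), the latter turning negative under all 3 other scalings. Vegfc minus Vegfa within an array differed by -0.24 between KO and WT, with overlapping arrays (two-sided exact permutation test, p = 0.3, 0.45 after adjustment over 15 tests).

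Angpt2, a context-dependent antagonist of TEK that loosens vessels for remodelling, lies within the gene Mcph1 in RefSeq. It was at 7.53, 7.53 and 7.41 on the WT arrays, 7.45, 7.57 and 7.46 on the HET arrays and 7.54, 7.77 and 7.77 on the KO arrays. KO 2 and KO 3 were above all other arrays, and KO 1 lay among the HET arrays and only narrowly above WT 1 and WT 2. The difference from WT to KO was 0.20 (adjusted p = 0.0929) and KO minus HET 0.20 (adjusted p = 0.101). Without KO 1 both passed, at 0.28 (adjusted p = 0.0187) and 0.28 (adjusted p = 0.0212).

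Among the VEGF receptors, Flt1 had the largest difference of any member. It was at 9.46, 9.70 and 9.55 on the WT arrays, 9.49, 9.66 and 9.42 on the HET arrays and 9.12, 9.15 and 9.08 on the KO arrays. The 3 KO arrays lay close together and below all 6 others. Flt1 fell by 0.46 ± 0.081 (SE) from WT to KO, to 72.9% of the WT signal (95% interval of the log2 difference -0.64 to -0.27, limma, adjusted p = 0.00565). Against HET the difference was -0.41 (adjusted p = 0.00899). Flt1 kept its call in both comparisons under every alternative run except a required change of 1.5-fold, with adjusted p from 0.00325 to 0.0235 against WT and from 0.00451 to 0.0347 against HET. The single Flt1 probe set cannot tell the membrane receptor from its soluble, decoy form.

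Kdr, the main signalling receptor for VEGFA, did not pass the test. It was at 10.21, 10.31 and 10.19 on the WT arrays, 10.23, 10.30 and 10.12 on the HET arrays and 10.21, 10.09 and 10.18 on the KO arrays, with all 3 genotypes overlapping. KO minus WT was -0.07 (95% interval -0.23 to 0.08, adjusted p = 0.440) and KO minus HET was -0.06 (adjusted p = 0.598). The difference between both receptors within an array, which a constant shift of that array leaves as it is, had a mean of 0.66 ± 0.074 (SD, n = 3) in WT, 0.69 ± 0.049 in HET and 1.04 ± 0.089 in KO for Kdr minus Flt1. The KO values, 0.94 to 1.10, did not overlap those of WT, 0.61 to 0.75, or HET, 0.64 to 0.74. Two-sided exact permutation tests gave p = 0.1 for each, the smallest value that 3 against 3 arrays allow, and 0.375 after Benjamini-Hochberg adjustment over 15 such tests. The shift of 0.38 between WT and KO largely restates the lower Flt1 and is no separate support for it.

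Flt4, which is expressed in early vessels before it narrows to lymphatic endothelium, was at 8.63, 8.53 and 8.53 on the WT arrays, 8.48, 8.53 and 8.29 on the HET arrays and 8.76, 8.63 and 8.43 on the KO arrays. The genotypes overlapped, and the KO arrays spread more widely than the WT arrays. KO minus WT was 0.04 (adjusted p = 0.770), negative once arrays were centred on their medians, and KO minus HET was 0.17 (adjusted p = 0.233).

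Of the angiopoietin receptors, Tek was the second member to fall in KO. It was at 10.27, 10.37 and 10.34 on the WT arrays, 10.29, 10.47 and 10.27 on the HET arrays and 10.14, 9.91 and 10.02 on the KO arrays. All KO arrays were below all others. Tek fell by 0.30 ± 0.080 (SE) from WT to KO, to 81.2% of the WT signal (95% interval -0.48 to -0.12, limma, adjusted p = 0.0260), and against HET the difference was -0.32 (adjusted p = 0.0214). The call against WT was lost without WT 1, WT 2, WT 3, KO 2 or KO 3, with adjusted p from 0.0561 to 0.0834, and that against HET without HET 2 or KO 2 (0.0636 to 0.0775), with Eif2s3y as a covariate (0.0548) or in a fit of those 2 genotypes alone (0.0545). Tek was lower in KO under all alternatives.

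Tie1, an orphan relative of TEK that modulates its signal, was at 9.28, 9.36 and 9.21 on the WT arrays, 9.31, 9.32 and 9.24 on the HET arrays and 9.16, 9.19 and 9.01 on the KO arrays. The 3 KO arrays were again below all 6 others, though KO 2 and WT 3 were only narrowly apart. The difference was -0.17 against WT (adjusted p = 0.103) and -0.17 against HET (adjusted p = 0.0973), neither of which passed. Tie1 minus Tek within an array differed by 0.13 between KO and WT, with overlapping arrays (two-sided exact permutation test, p = 0.4, 0.545 after adjustment over 15 tests).

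**Figure D2:**
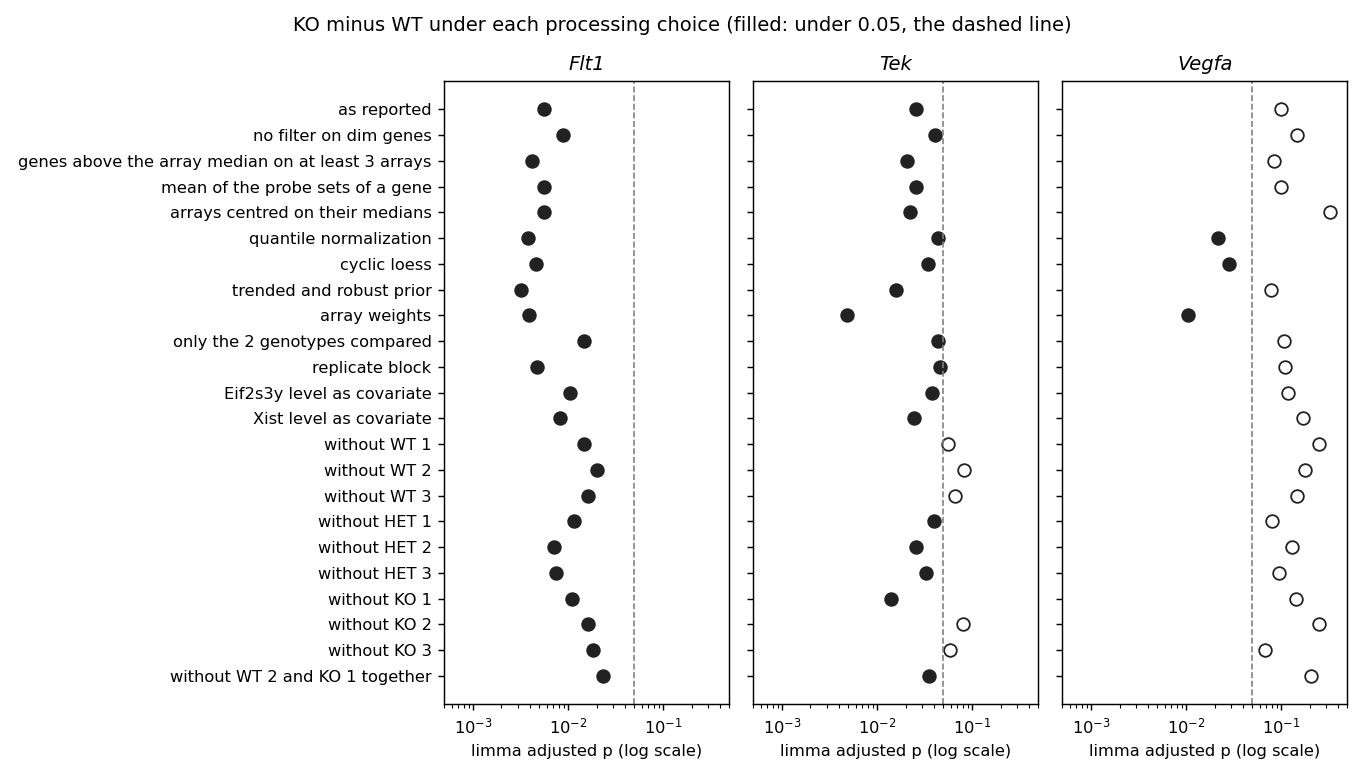
limma adjusted p for KO minus WT (horizontal axis, log scale) of Flt1, Tek and Vegfa under each processing choice or left-out array (vertical axis), with the reported value on the first line and filled points under 0.05, the dashed line. Flt1 stayed between 0.00325 and 0.0235, Tek ran from 0.00489 to 0.0834, and Vegfa passed under quantile normalization, cyclic loess and array weights.

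Of the neuropilins, Nrp1, the co-receptor of KDR that also binds SEMA3A, was at 10.08, 10.22 and 10.19 on the WT arrays, 10.19, 10.36 and 10.06 on the HET arrays and 10.36, 9.94 and 9.999 on the KO arrays. KO 1 matched the highest HET array at 10.36, and KO 2 and KO 3 were the lowest of all. KO minus WT was -0.06 (adjusted p = 0.731), positive after quantile normalization, and KO minus HET was -0.10 (adjusted p = 0.606).

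Nrp2, the co-receptor associated with veins and lymphatics that also binds SEMA3F, was at 10.20, 10.25 and 10.14 on the WT arrays, 10.22, 10.10 and 10.09 on the HET arrays and 10.45, 10.39 and 10.22 on the KO arrays. KO 1 and KO 2 were above all other arrays, and KO 3 lay within the WT range. Nrp2 had a KO minus WT difference of 0.16 (adjusted p = 0.160) and KO minus HET 0.22 (adjusted p = 0.0704). The latter passed without KO 3 (0.28, adjusted p = 0.0265), and KO minus WT passed after quantile normalization (0.23, adjusted p = 0.0205) and cyclic loess (0.22, adjusted p = 0.0347). Nrp2 minus Nrp1 within an array was 0.31 higher in KO than in HET without overlap (two-sided exact permutation test, p = 0.1, 0.375 after adjustment over 15 tests) and 0.22 higher than in WT with overlap (p = 0.2, 0.429 after adjustment).

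**Figure D3:**
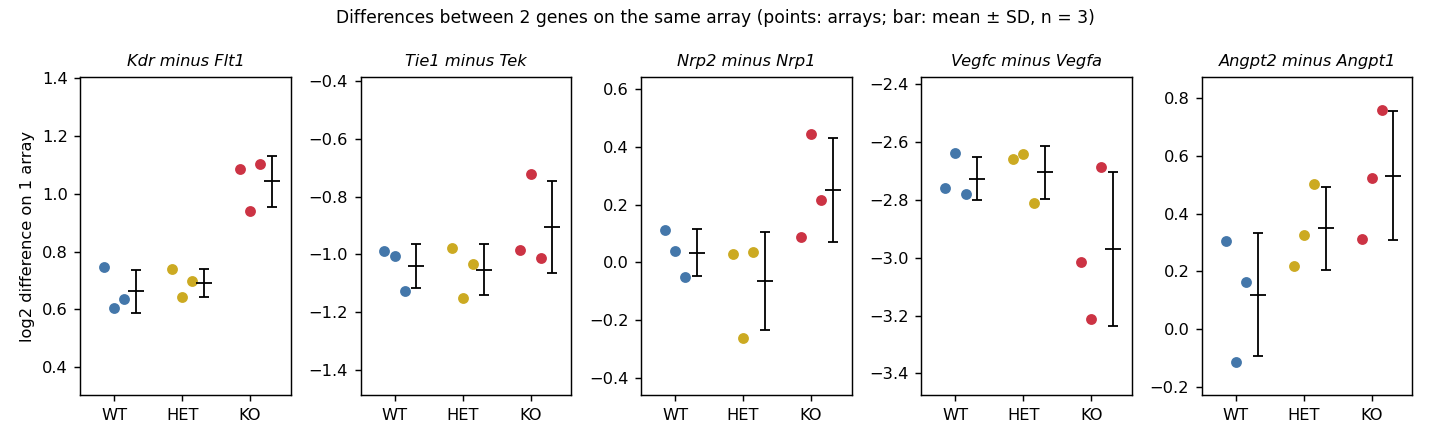
Log2 difference between paired genes within an array (vertical axis) for 5 pairs, with points for arrays grouped by genotype and a bar for the mean ± SD (n = 3). For Kdr minus Flt1 the KO arrays, 0.94 to 1.10, lie apart from the WT and HET arrays, which reach at most 0.75.

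Counting by overlap alone, KO and WT arrays were separate for 5 of 10 members, Vegfa and Angpt2 higher and Flt1, Tek and Tie1 lower. Among all genes tested, 40.5% were separate (15.8% higher and 24.7% lower). Angpt2 was separate only narrowly, with KO 1 at 7.541 beside WT 1 and WT 2 at 7.533. KO and HET were separate for 4 members, Vegfa higher and Flt1, Tek and Tie1 lower, beside 37.1% of all genes (15.7% higher and 21.4% lower). Against WT and HET together the KO arrays were separate for the same 4, beside 30.9% of all genes (12.2% higher and 18.7% lower). All 3 comparisons use the same KO arrays. KO was thus lowest for Flt1, Tek and Tie1 and highest for Vegfa, with the WT and HET arrays of these genes overlapping.

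In HET against WT no member passed the test. Rnh1 itself, at -0.62 without overlap, did not pass either (limma, adjusted p = 0.939, unadjusted p = 0.00104), and it passed under 3 of 24 alternatives, among them without KO 1 (adjusted p = 0.0224). The comparison thus missed a lower level of the targeted gene. HET minus WT passed for 0 of 10 members and 0 of 13207 genes (limma), with 0 members and 327 genes at an unadjusted p under 0.05. The HET and WT arrays overlapped for all 10 members, while 10.2% of all genes were separate (4.25% higher and 5.98% lower). The differences were -0.13 for Flt4, -0.09 for Vegfa and 0.04 or less in size for Tek, Tie1, Kdr, Nrp1 and Angpt2, with adjusted p from 0.939 to 0.999 over the members. The 95% interval of HET minus WT was -0.23 to 0.14 for Flt1 and -0.16 to 0.20 for Tek. Without WT 2, 5 genes passed and without KO 1, 1 gene, none of them a member.

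With WT and HET taken as 1 group of 6 arrays, which reuses the same KO arrays and is no independent support, 6 of the 10 members passed beside 31.0% of all genes (11.9% higher and 19.1% lower). Flt1 (-0.43, adjusted p = 0.00136), Tek (-0.31, adjusted p = 0.0058) and Tie1 (-0.17, adjusted p = 0.0392) were lower in KO. Vegfa (0.24, adjusted p = 0.0234), Angpt2 (0.20, adjusted p = 0.0379) and Nrp2 (0.19, adjusted p = 0.0488) were higher. Those for Flt1 and Tek held when any 1 array was left out. With the 3 genotypes kept apart or with no filter on dim genes, 1 member was higher, Vegfa, and 2 were lower, Flt1 and Tek, and with Xist as a covariate 0 were higher and 2 lower. Vegfa was lost without KO 1 or KO 2, Tie1 without WT 1, WT 2, HET 1, HET 2 or KO 3, Angpt2 without WT 1, WT 3, HET 1, HET 3, KO 2 or KO 3, and Nrp2 without any array other than WT 2 or KO 3. Their adjusted p then rose to at most 0.0956 for Vegfa, 0.155 for Tie1, 0.144 for Angpt2 and 0.147 for Nrp2.

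**Figure D4:**
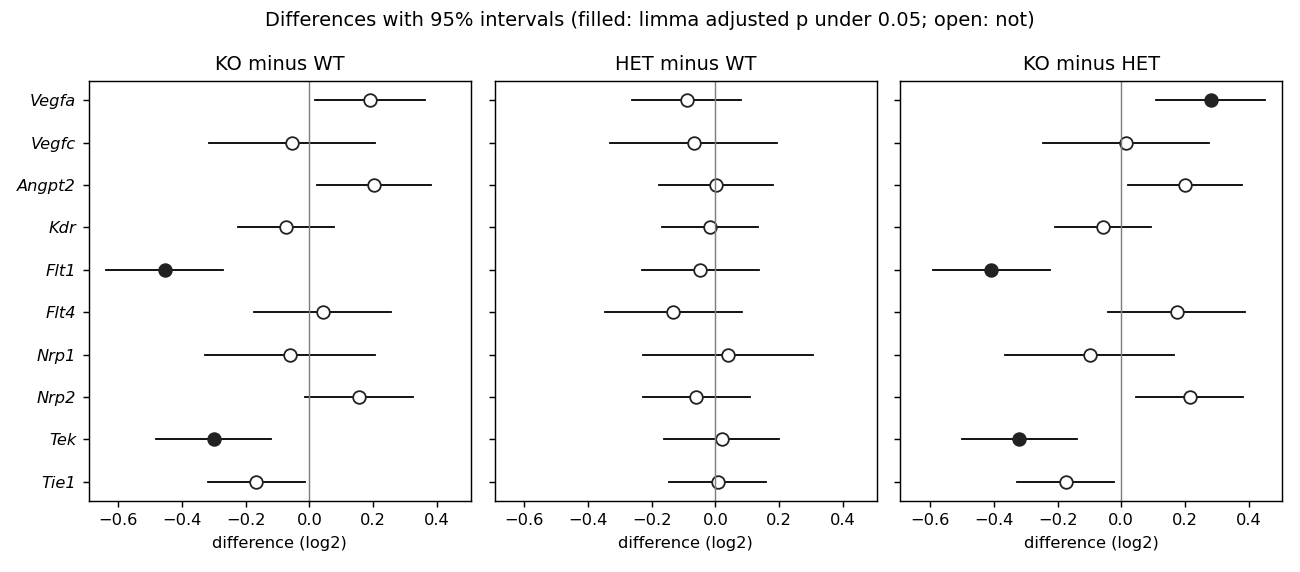
Log2 differences (horizontal axis) of the 10 members with 95% intervals for KO minus WT, HET minus WT and KO minus HET, filled where the limma test passed. Flt1 at -0.46 and Tek at -0.30 passed in KO minus WT, and Vegfa at 0.28 joined them in KO minus HET.

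The other genes of the pathway were read from lists by role. These lists were chosen with earlier results of these data known, so their counts are descriptions and no test of a list. Of 4 other ligands tested, Vegfb, Pgf, Angpt1 and Angpt4, 0 passed in KO against WT, beside 8.27% of all genes higher and 15.2% lower. Vegfb, a ligand of FLT1, had a difference of 0.20 (adjusted p = 0.0671) and passed under 6 of 24 alternatives, among them without KO 3 (0.25, adjusted p = 0.0341), and Angpt1, the activating ligand of TEK, one of -0.21 (adjusted p = 0.264). Angpt2 minus Angpt1 within an array averaged 0.12 in WT and 0.53 in KO, and these arrays did not overlap (difference 0.41, two-sided exact permutation test, p = 0.1, 0.375 after adjustment over 15 tests), though KO 1 at 0.313 was close to WT 1 at 0.306.

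Of 10 plexins and class 3 semaphorins tested, 3 rose in KO against WT and 0 fell, with a median of 0.20, and 1 rose against HET. Over all genes, 8.27% were higher and 15.2% lower against WT, and 8.17% were higher against HET. Sema3f, a repulsive ligand of NRP2, rose by 0.53 ± 0.080 (SE, adjusted p = 0.00308), from 8.85 ± 0.05 (SD, n = 3) to 9.38 ± 0.16. Sema3a, a ligand of NRP1, rose by 0.77 ± 0.18 (adjusted p = 0.0161), to 6.92 ± 0.44 (SD, n = 3) in KO. Its means of 6.15 in WT and 6.49 in HET were near or under those arrays' 40th percentiles, 6.35 to 6.57. Sema3a was bright enough to test only through its KO arrays, so its rise is no independent support. Plxna3, a plexin co-receptor of the neuropilins, rose by 0.24 (adjusted p = 0.0239), while Sema3g had a difference of 0.16 (adjusted p = 0.0736). Sema3a was lost without WT 1 or WT 2, and Plxna3 without WT 1, WT 3, KO 2 or KO 3, so that 1 passed without WT 1. Against HET, Sema3f rose (0.45, adjusted p = 0.00561), while Sema3a (0.43, adjusted p = 0.122) and Plxna3 (0.19, adjusted p = 0.0603) did not pass.

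Of 23 genes that relay or restrain the receptors' signal, 0 rose and 3 fell in KO against WT, with a median of -0.11. This is near the share over all genes, of which 8.27% were higher and 15.2% lower. Ptprb, the endothelial phosphatase (VE-PTP) that acts on TEK and KDR, fell by 0.50 (from 8.60 ± 0.15 to 8.10 ± 0.15, SD, n = 3, adjusted p = 0.0162). Prkca, a protein kinase C, fell by 0.36 (adjusted p = 0.0220), and Map2k1, the kinase MEK1, by 0.29 (adjusted p = 0.0268), while Pik3ca, a catalytic subunit of PI 3-kinase, had a difference of -0.21 (adjusted p = 0.0618). Each of these calls was lost when certain arrays were left out, Ptprb without WT 1, WT 2 or KO 3 and the other two without WT 1, WT 2 or KO 2. The count was 0 without WT 1 or WT 2 and 1 without KO 2, and 2 further genes rose without KO 1. Against HET, 0 rose and 3 fell, Ptprb and Map2k1 among them, beside 8.17% of all genes higher and 13.6% lower. Prkca did not pass against HET (-0.16, adjusted p = 0.261).

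Of 9 genes known to be induced by VEGF in endothelial cells, 4 rose in KO against WT and 0 fell, with a median of 0.24. Among all genes, 8.27% were higher and 15.2% lower, but this list was chosen with earlier results known, so the 2 shares cannot be weighed against each other. Apln, the apelin peptide of growing vessels, rose by 0.95 ± 0.14 (SE, adjusted p = 0.00258), from 8.82 ± 0.14 (SD, n = 3) to 9.78 ± 0.23. Esm1, the secreted tip-cell proteoglycan endocan, rose by 0.53 (from 6.41 ± 0.08 to 6.94 ± 0.11, adjusted p = 0.00294), and Nr4a1, an immediate-early nuclear receptor, by 0.36 (adjusted p = 0.00934). In WT and in HET (mean 6.27), Esm1 was near or under the arrays' 40th percentiles, 6.35 to 6.57. It was bright enough to test only through its KO arrays, so its rise is no independent support. Hlx, a homeobox factor, rose by 0.61 (adjusted p = 0.0321) and did not pass without WT 1, WT 2, WT 3 or HET 2. Those below 0 were Plaur, the urokinase receptor (-0.30, adjusted p = 0.0942), and Adamts1, a secreted protease (-0.12, adjusted p = 0.233). Against HET the same 4 rose and Plaur was lower (-0.39, adjusted p = 0.0414), beside 8.17% of all genes higher and 13.6% lower.

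Of 23 transcription factors and regulators that act on the members' genes or messages, 4 rose and 1 fell in KO against WT, with a median of 0.05. Over all genes, 8.27% were higher and 15.2% lower. Etv2, the ETS factor that sets blood and endothelial fate upstream of Kdr and Tek, rose by 0.64 (from 6.46 ± 0.18 to 7.10 ± 0.05, SD, n = 3, adjusted p = 0.00202). Its WT mean lay near the 40th percentiles of the WT arrays, 6.35 to 6.49, while its HET mean was 6.67. Nr2f2, the venous factor COUP-TFII, rose by 0.59 (adjusted p = 0.00400). Foxc2 rose by 1.13 (adjusted p = 0.0156, not passed without WT 1 or WT 2), and Gata2 by 1.08 (adjusted p = 0.0234), lost without WT 1, WT 3 or KO 2. Foxc2 had a mean of 6.32 in WT and 6.35 in HET, near or under the 40th percentiles of those arrays (6.35 to 6.57). It was bright enough to test through its KO arrays, so its rise is no independent support. Arnt, the partner of the hypoxia-inducible factors and named only because it was the single member of the list to fall, had a difference of -0.20 (adjusted p = 0.0431). The count of genes that rose was 2 without WT 1 and 7 after quantile normalization.

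Of 11 hypoxia targets tested, 0 rose and 2 fell in KO against WT, with a median of 0.02, beside 8.27% of all genes higher and 15.2% lower. Hypoxia is a known inducer of Vegfa, but its part in the Vegfa level here was not tested. P4ha1, a collagen prolyl hydroxylase, fell by 0.41 (adjusted p = 0.0185), and Bnip3, a mitophagy receptor, by 0.19 (adjusted p = 0.0467). Ndrg1 had a difference of 0.72 (adjusted p = 0.0651) and Egln3 of 0.28 (adjusted p = 0.0742) in the other direction. P4ha1 was lost without WT 1, KO 2 or KO 3, Bnip3 without any array other than WT 3, and 0 genes fell without WT 1 or KO 2. In turn Ndrg1 passed as higher without KO 1 (1.02, adjusted p = 0.00658) and Egln3 without HET 3 (0.28, adjusted p = 0.0359). Against HET, 1 hypoxia target rose, Egln3 (0.45, adjusted p = 0.0146), and 1 fell, Bnip3 (-0.24, adjusted p = 0.0220). Of all genes, 8.17% were higher and 13.6% lower in that comparison.

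**Figure D5:**
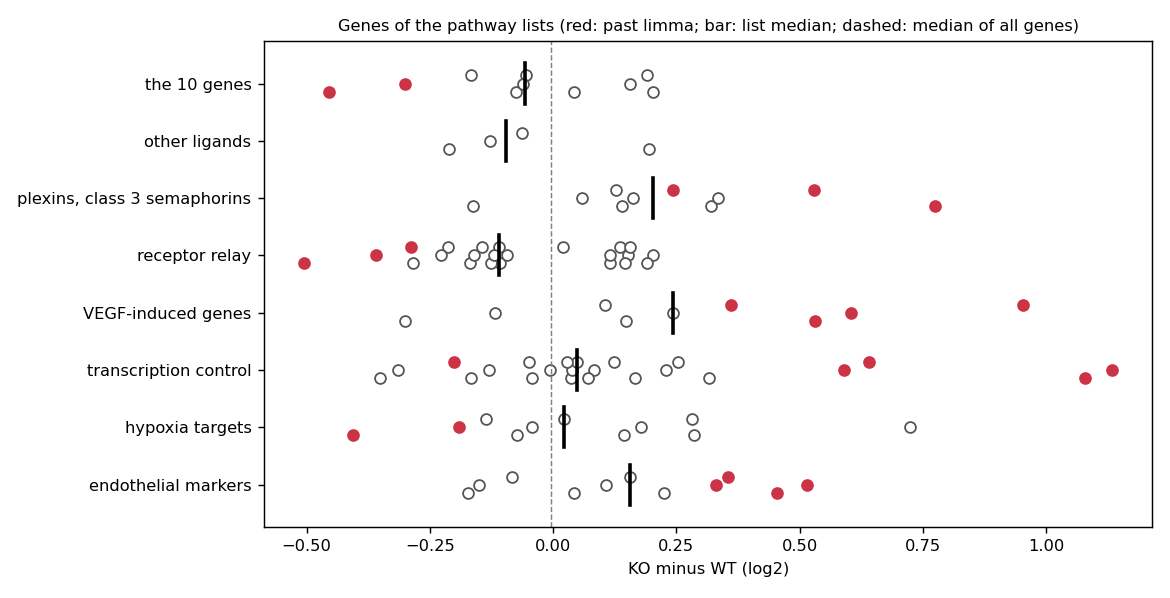
KO minus WT log2 difference (horizontal axis) of the 10 members and of each tested gene in the lists by role and the endothelial marker list, red where the limma test passed, with a black bar at the list median and a dashed line at the median of all genes. The 9 VEGF-induced genes hold 4 that rose, up to Apln at 0.95, and the 23 receptor relay genes hold 3 that fell. Of all genes tested, 8.27% were higher and 15.2% lower.

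Endothelial markers were read on the same arrays, though which cells carried the members' transcripts was not measured. Over all genes, 8.27% were higher and 15.2% lower in KO than in WT. Of 11 endothelial markers, 4 rose in KO against WT, 0 fell and 7 did not pass, with 8 differences above 0 and 3 below, a median of 0.16 and a list mean of 9.41 to 9.50 in KO beside 9.25 to 9.38 in WT. Egfl7, a secreted endothelial matrix protein, rose by 0.52 (from 9.28 ± 0.03 to 9.80 ± 0.12, SD, n = 3, adjusted p = 0.00213) and passed whichever array was left out. Cldn5, a tight junction protein, rose by 0.46 (adjusted p = 0.0407), Ecscr, an endothelial surface protein, by 0.33 (adjusted p = 0.0428), and Robo4, an endothelial guidance receptor, by 0.36 (adjusted p = 0.0483). Those below 0 were Emcn, an endothelial sialomucin (-0.17, adjusted p = 0.251), Eng, a TGF-beta co-receptor (-0.15, adjusted p = 0.204), and Pecam1, an adhesion protein (-0.08, adjusted p = 0.504). Cldn5, Ecscr and Robo4 were each lost without most single arrays, and the count that rose was 1 without WT 1, WT 3, HET 1, HET 2, HET 3 or KO 2, 2 without WT 2, and 1 with arrays centred on their medians. Without KO 1, 3 rose and 1 fell. Against HET, 2 rose, Egfl7 and Ecscr, and 0 fell, beside 8.17% of all genes higher and 13.6% lower.

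Markers of other yolk sac cells moved as well, on arrays where 8.27% of all genes were higher and 15.2% lower in KO than in WT. Of 10 visceral endoderm markers, 2 fell, the plasma proteins Trf (-0.51, adjusted p = 0.00186) and Afp (-0.33, adjusted p = 0.00814), and the list mean was 12.2 to 12.3 in KO beside 12.4 to 12.5 in WT. Of 4 macrophage markers tested, 3 fell, Mrc1 (-1.29, adjusted p = 0.00781), Csf1r (-0.39, adjusted p = 0.0152) and Fcgr3 (-0.83, adjusted p = 0.0164). The other, Cx3cr1, had a difference of 0.13 in the opposite direction (adjusted p = 0.311). Over 6 macrophage markers, including those too dim to test, the list mean was 6.81 to 6.96 in KO beside 7.20 to 7.30 in WT. Without WT 2 only 1 passed, and without WT 1 Fcgr3 did not. Of 6 erythroid markers, 2 fell, Alas2 (-0.89, adjusted p = 0.00884) and Hbb-y (-0.20, adjusted p = 0.0481), and the count was 5 without KO 1 and 1 without any other array. Of 4 lymphatic markers 0 passed, but 2 fell without KO 1, and 0 of 4 mural cell markers and 0 of 4 markers of the embryo proper passed. Sox2 and Pax6, embryo markers too dim to test, were both highest on KO 3. There Sox2 was at 7.46, beside 5.43 to 5.65 on the other arrays, and Pax6 at 6.42. Tpbpa, a trophoblast marker too dim to test, was at 7.84 on KO 3 and 4.26 to 5.90 on the others. The 1 trophoblast marker bright enough to test, Prl4a1, had a difference of 1.34 (adjusted p = 0.326). Of 5 decidual and uterine markers tested, 0 passed against WT. Prl8a2 passed against HET (2.69, adjusted p = 0.0431), beside 8.17% of all genes higher and 13.6% lower. The part of these cell types in the members' differences was not tested.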

How the data were processed

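Total RNA (100 ng per sample) from 9 yolk sac samples was amplified, and 5.5 µg of sense cDNA per sample was fragmented, biotin-labelled and hybridised to Affymetrix arrays, per the labels' protocols. Each deposited value is a probe set's log2 signal, which the authors computed by RMA. The submitters' processing notes name Affymetrix Expression Console, version 1.2.1.20, for this. No genome build for the array's annotation is named in the sources used here.

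Of 28350 probe sets, 21780 named 1 gene symbol in the platform's gene table, 1618 several and 4952 none. The brightest probe set stood for each of 19933 genes, and 13207 genes above the 40th percentile of their array on at least 3 of 9 arrays were tested with limma 3.58.1 in R 4.3.3 (lmFit and eBayes, all 9 arrays in 1 fit), which had been tested on simulated data. P-values were adjusted over all these genes by Benjamini-Hochberg, and an adjusted p under 0.05 passed. The number of arrays limits the precision. Differences within an array between 2 genes were compared by two-sided exact permutation tests. The text names the 10 members, Rnh1, Angpt1, up to 4 genes per list with the smallest unadjusted p for KO minus WT, and the 2 genes most correlated with each member. Outside this rule, Arnt, Plaur, Adamts1, Emcn, Eng, Pecam1, Sox2, Pax6 and Tpbpa were named after their values were seen. Xist and Eif2s3y were named as sex-linked transcripts, and 6 genes of the pathway lists as too dim to test. The members and the lists were chosen with earlier results of these data known. Alternatives changed the filter, probe set rule, scaling, prior, array weights, samples fitted, covariates, replicate block and threshold, and left out each array in turn. No step of the authors' processing was repeated.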

Additional observations from a re-analysis of the deposited data

How the results depend on the processing

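Over the 10 members, 4 comparisons and all alternatives, 817 of 960 values kept their direction and side of the threshold, 71 lost a call, 20 gained one, 52 uncalled values moved by more than the spread between replicates or changed sign, and no called value changed sign. Of genes past the test in KO minus WT, 1092 were higher and 2009 lower, against 577 and 2529 with arrays centred on their medians, which put the median of all genes at -0.07.

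Members that passed as higher, reported as 0 in KO minus WT, 1 in KO minus HET and 3 against WT and HET pooled, numbered 2 and 2 in KO minus WT and KO minus HET with quantile normalization and likewise 2 and 2 with cyclic loess. They were 0 in KO minus HET and 0 in the pooled comparison with arrays centred on their medians, and 1 in the pooled comparison with no filter on dim genes or with the 3 genotypes kept apart, each of which left 2 rather than 3 lower. Array weights gave 3 in KO minus WT and 2 in KO minus HET, with 5753 and, in HET minus WT, 6 of all genes, but their estimation stopped before convergence with a weight of 47.4 on WT 1. Fitting only the 2 genotypes compared gave 0 higher and 1 lower in KO minus HET. Eif2s3y as a covariate gave 1 lower and 1739 of all genes in KO minus HET. Xist as a covariate gave 2016 of all genes in KO minus WT, 843 with 0 members higher in KO minus HET, and 2587 with 0 members higher in the pooled comparison. An adjusted p under 0.1 gave 1 higher in KO minus WT and 2 in KO minus HET. A required change of 1.5-fold left 608, 567 and 595 of all genes in the 3 comparisons and 0 members in either direction. Without WT 2 and KO 1 together, 1 member was higher in KO minus WT, 1 in the pooled comparison, and 4 of all genes passed in HET minus WT. The cause of these shifts was not tested.

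Leaving out each array in turn gave 1669 to 3842 of all genes in KO minus WT with 0 to 1 members higher and 1 to 2 lower, 0 to 5 in HET minus WT with 0 members, 1508 to 3149 in KO minus HET with 0 to 2 higher and 1 to 2 lower, and 3213 to 4298 in the pooled comparison with 0 to 3 higher and 2 to 3 lower. The labels do not say whether replicate numbers pair the samples, and the correlations did not settle it. Same-numbered arrays correlated at -0.287 to 0.457 in their deviations from genotype means, 5 of 9 pairs over 0.1. Those between WT 3, HET 3 and KO 3 were 0.249 to 0.457. These arrays were among the 4 of 9 that correlated best with their own number. With the replicate block, 3131 of all genes passed in KO minus WT, 2853 in KO minus HET, 4120 in the pooled comparison and 0 in HET minus WT, and the counts of members that passed were as reported.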

Other observations

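The genes whose pattern over the 9 arrays was most like that of each member, among 12591 genes compared, are given as a description, since all share arrays and genotype differences. Igfbp1, which encodes a secreted binding protein of insulin-like growth factors, followed Flt1 most closely (Pearson r = 0.993 over 9 arrays, 0.954 for deviations from genotype means), and its own KO minus WT difference was -1.43 (limma, adjusted p = 0.00235). Sec22b, a vesicle trafficking protein, had r = 0.988 with Flt1. Abitram (0.987) and Trappc1 (0.982), the latter a subunit of a trafficking complex, were nearest to Tek, and Msl3l2 (0.973) and Zfp282 (0.969) to Vegfa. Rtcb, the tRNA ligase, was nearest to Kdr (0.995), followed by Rif1 (0.974), Tmem51 and Cbr1 to Tie1 (both 0.984), and Syf2 (0.992) and Atg101 (0.990) to Nrp2. Cldn5, the endothelial tight junction gene, was nearest to Angpt2 (0.959), followed by St6galnac6 (0.945). For the other members the nearest genes were Clip1 (0.959) and Ap4s1 (0.935) for Vegfc, Baiap2l1 (0.957) and Zfp706 (0.930) for Flt4, and Ndufaf1 (0.966) and Slain2 (0.939) for Nrp1.

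Among the 45 pairs of members, r over 9 arrays ran from -0.75 to 0.91. Flt1 and Tek had the highest value, 0.91 over 9 arrays and 0.59 in deviations from genotype means.

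Several genes of the pathway lists were too dim to test. Vegfd, the other ligand of FLT4, had a median level of 5.75, Sema3c 5.79, Sema3d 4.91, Foxc1 6.21, the VEGF-induced channel subunit Kcne3 5.83 and the hypoxia target Car9 5.73.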
